A study of Mus musculus with 7 samples.

Results

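The mouse receptors for the constant part of IgG were followed in spleens of Fpr2 knockout and wild-type mice. The 6 genes, of 55414 in the table, were the activating receptors Fcgr1, Fcgr3 and Fcgr4, their common signalling chain Fcer1g, the inhibitory receptor Fcgr2b and the transport receptor Fcgrt. They were taken by name, and all 6 passed the filter on low counts. The groups were 4 spleen libraries with the genotype Fpr2KO (a loss of the formyl peptide receptor gene Fpr2) and 3 wild-type libraries (WT) with the genotype C57BL/6N. The sources used here do not give age, sex, any treatment, the way the deletion was made or the strain background of the Fpr2KO mice. Polyadenylated RNA was sequenced to 16424799 to 18692809 counted reads in Fpr2KO and 14968605 to 16600334 in WT libraries.

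Fpr2 itself had 0 reads in each Fpr2KO library, against 537, 479 and 477 reads in WT replicates 1, 2 and 3. As spleen should, all libraries held transcripts of B cells, whose 9 marker genes summed to 3562 to 4019 CPM (reads of a gene relative to the TMM-adjusted size of its library) in Fpr2KO and 3788 to 3991 CPM in WT. The 12 markers of red pulp macrophages, the iron-recycling phagocytes of the spleen, summed to 4338 to 5403 CPM in Fpr2KO and 4446 to 5181 CPM in WT. Pancreatic acinar transcripts, from the organ beside the spleen, stood apart in Fpr2KO replicates 1 and 2. Their 15 genes summed to 942 and 540 CPM there, to 39.5 and 35.7 CPM in Fpr2KO replicates 3 and 4, and to 24.0 to 49.0 CPM in WT. In whole spleen, fewer cells of a type and less RNA per cell cannot be told apart.

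Fc gamma receptors join antibody to the cells that act on it. When immune complexes cluster an activating receptor, the paired common chain is phosphorylated on the tyrosines of its immunoreceptor activation motif (ITAM) by Src family kinases and recruits Syk, which leads to phagocytosis, degranulation and cytokine release. Fcgr2b carries an immunoreceptor inhibitory motif (ITIM) instead, which recruits the phosphatase SHIP-1 and raises the threshold of B cells and phagocytes. Fcgrt pairs with beta-2 microglobulin, binds IgG in acidic endosomes and returns it to the circulation.

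The motifs that set activation and inhibition apart are shown as the coding strand of the GENCODE transcripts, read 5′ to 3′ on the minus strand of GRCm38 chromosome 1. In the Fcer1g ITAM, at chr1:171229889-171230072 with an intron between its parts, capitals mark the codons of the paired tyrosines and of the leucines that follow them. In the Fcgr2b ITIM, capitals mark the isoleucine, tyrosine and leucine codons of the motif. The Fcgr2b stretch shown, motif and flanks together, spans chr1:170961050-170961204 with an intron between its parts.
Fcer1g ITAM: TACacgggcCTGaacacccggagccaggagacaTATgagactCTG
Fcgr2b ITIM with 21 bases on each side: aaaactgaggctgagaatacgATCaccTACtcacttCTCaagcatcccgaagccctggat

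Fcgr2b, Fcgr4, Fcgr3 and Fcer1g lie together on chromosome 1, within 276 kb between positions 170958617 and 171234365. Fcgr1 lies on chromosome 3 (96282909 to 96293969, minus strand) and Fcgrt on chromosome 7 (45092990 to 45103851, minus strand). Within the chromosome 1 cluster, Fcgr2b occupies 170958617 to 170976547, Fcgr4 occupies 171018920 to 171029761, Fcgr3 occupies 171051174 to 171064935 and Fcer1g occupies 171229572 to 171234365. Fcgr4 is the member on the plus strand.

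Fcgr2b and Fcgr3 are near copies of each other in the part that codes for the outside of the cell, which bears on how their reads can be counted. Their coding sequences were identical at 678 of 782 aligned bases, 86.7%, with an unbroken identical run of 129 bases. The run is shown with 30 bases on each side and the 5 differing bases in capitals, spliced, from the minus strand of chr1:170966644-170968111 for Fcgr2b and chr1:171054137-171057822 for Fcgr3.
Fcgr2b: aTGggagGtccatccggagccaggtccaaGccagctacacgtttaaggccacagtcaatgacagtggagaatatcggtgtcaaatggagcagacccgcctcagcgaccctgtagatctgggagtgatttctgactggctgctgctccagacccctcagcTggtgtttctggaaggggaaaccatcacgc
Fcgr3: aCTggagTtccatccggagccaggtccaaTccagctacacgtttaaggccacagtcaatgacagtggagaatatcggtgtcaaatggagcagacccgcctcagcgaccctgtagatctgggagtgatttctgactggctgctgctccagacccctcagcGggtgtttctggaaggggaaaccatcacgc

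Of the 50-base words in the Fcgr3 transcript, 12.8% also occurred in that of Fcgr2b, and 4.75% of the Fcgr2b words occurred in Fcgr3. Counting every other gene, 8.24% of the Fcgr2b words occurred elsewhere. Reads from these stretches may have been left uncounted or assigned to another gene, so the counts of both are uncertain by that part. For Fcgr1, Fcgr4, Fcer1g and Fcgrt, 0 such words occurred in a transcript of another gene. Fcgr2b also shares 155 exon bases with an antisense gene, Gm38204, which had at most 2 reads in a library. Whether the counting used strand is not stated in these sources.

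No IgG receptor gene passed the test between Fpr2KO and WT spleens, and each of the 6 fitted differences was smaller than 1.5-fold. Fcgr4 had the largest of them, 1.30-fold higher in Fpr2KO, and Fcer1g and Fcgrt the smallest. Of the 6 genes, 2 had a higher and 4 a lower fitted level in Fpr2KO, and a median log2 difference (Fpr2KO minus WT, from the fit) of -0.011, against -0.0048 over all 16089 tested genes. In edgeR's quasi-likelihood test at a Benjamini-Hochberg adjusted p under 0.05, 0 of the 6 were called, where the background was 0.0373%. DESeq2 also called 0, against a background of 0.355%. The count was also 0 with limma-voom, against 0.0311%. At an unadjusted p under 0.05 there was 1 member, Fcgr4, where the background was 4.99% in either direction and 1.92% for higher genes. Expression in Fpr2KO was separate from WT, with no overlap of libraries, for 0 members, against a background of 5.91% (2.73% higher and 3.18% lower).

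**Figure D1:**
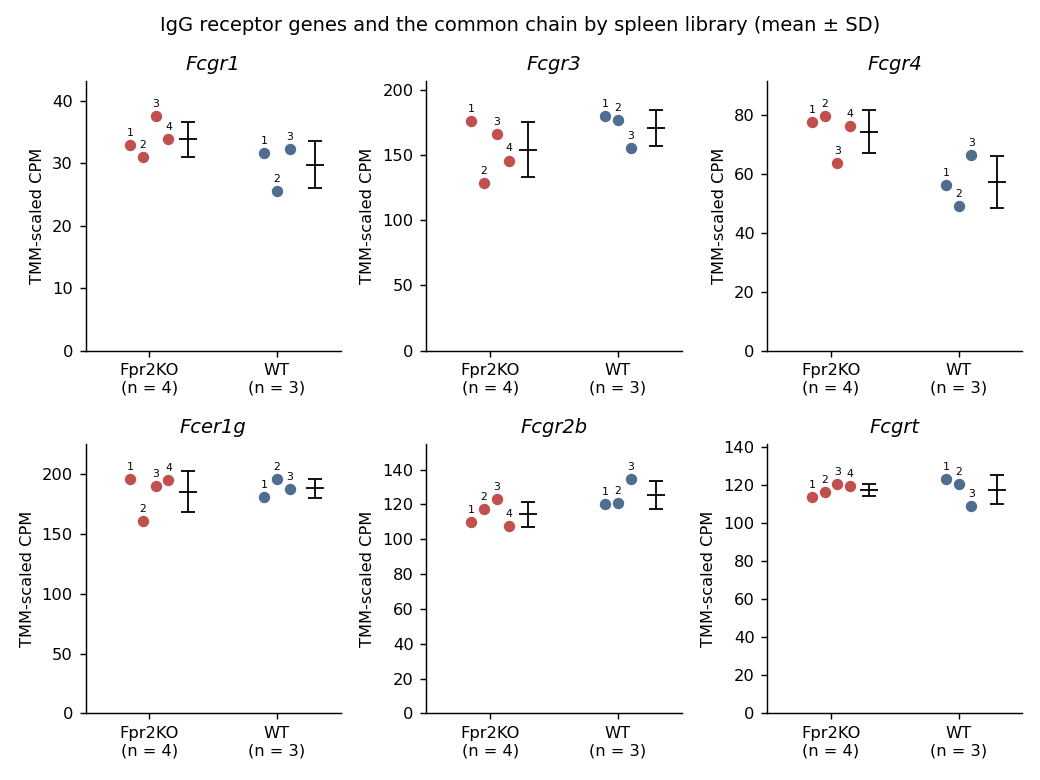
TMM-scaled CPM of each gene in each spleen library, with the replicate number above each point and the mean ± SD beside it (Fpr2KO, n = 4, left; WT, n = 3, right). The groups overlap in every panel. For Fcgr4 and Fcgr1, 3 Fpr2KO libraries lie above all WT libraries, and for Fcgr2b 3 lie below them.

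Among the activating receptors, Fcgr1 encodes the receptor that binds single IgG molecules with high affinity and marks monocytes and macrophages. It had 32.9, 30.9, 37.5 and 33.9 CPM in Fpr2KO replicates 1 to 4, against 31.6, 25.5 and 32.2 CPM in WT replicates 1 to 3. Fpr2KO replicate 3 was the highest library and WT replicate 2 the lowest. Fpr2KO replicates 1, 3 and 4 lay above all WT libraries, but replicate 2 lay below WT replicates 1 and 3. The means were 33.8 ± 2.77 CPM in Fpr2KO (SD, n = 4) and 29.8 ± 3.69 in WT (n = 3), with a log2 difference of 0.18 (SE 0.11, edgeR adjusted p = 1.00). The 95% interval of the fold ran from 0.953 to 1.35. An exact two-sided permutation test gave p = 0.229. With the 35 splits that 4 against 3 libraries allow, this two-sided test could not give a p under 0.05 for any gene.

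Fcgr3 encodes the low-affinity activating receptor for immune complexes that macrophages, neutrophils, NK cells and mast cells carry. It had 176, 129, 166 and 146 CPM in Fpr2KO replicates 1 to 4, against 180, 177 and 155 CPM in WT replicates 1 to 3. Fpr2KO replicates 2 and 4 lay below every WT library, while replicates 1 and 3 lay within the WT range. The means were 154 ± 21.1 CPM in Fpr2KO (n = 4) and 171 ± 13.5 CPM in WT (n = 3). The log2 difference was -0.15 (SE 0.12, edgeR adjusted p = 1.00; exact permutation p = 0.286), and the interval of the fold was 0.756 to 1.08.

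Fcgr4 encodes the activating receptor of intermediate affinity that monocytes, macrophages and neutrophils of the mouse carry. It had 77.8, 79.7, 63.6 and 76.4 CPM in Fpr2KO replicates 1 to 4, against 56.2, 49.1 and 66.6 CPM in WT replicates 1 to 3. Fpr2KO replicates 1, 2 and 4 lay above all WT libraries, and replicate 3 lay below WT replicate 3. All 4 Fpr2KO libraries lay above the WT mean. The means were 74.4 ± 7.29 CPM in Fpr2KO (n = 4) and 57.3 ± 8.76 CPM in WT (n = 3).

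Fcgr4 had a log2 difference of 0.38 (SE 0.12) and an interval of the fold from 1.08 to 1.57 that was not adjusted for the number of genes. Its unadjusted p of 0.0112 in edgeR's test ranked 215th of 16089, and the adjusted p was 0.833. The exact permutation test gave p = 0.114. The log2 difference was 0.50 without WT replicate 3 (edgeR adjusted p = 0.316), 0.28 without WT replicate 2 (adjusted p = 1.00) and 0.29 without both Fpr2KO libraries with pancreatic transcripts (adjusted p = 1.00). It was positive in all 17 alternative fits, with adjusted p between 0.316 and 1.00.

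Marker sums of the cell types that carry Fcgr4 or Fcgr3 were lower in Fpr2KO without overlap for neutrophils and for mast cells and basophils, higher without overlap for NK cells, and overlapped for the others. The 12 neutrophil markers had lower fitted levels in 12 of 12 cases, with 0 passing edgeR's test and 5 called by DESeq2. Over all 16089 tested genes 8270 were lower, and the DESeq2 background was 0.355% in either direction. The neutrophil markers summed to 1532 to 3053 CPM in Fpr2KO and 4038 to 5126 CPM in WT. Of the 12, 5 did not overlap between the groups, all lower, against a background of 3.18% for lower genes. The 8 mast cell and basophil markers, lower in 8 of 8 cases with 1 called by DESeq2, summed to 38.1 to 58.5 CPM in Fpr2KO and 81.5 to 135 CPM in WT. The gene called was Hdc, which held the largest part of these sums. The separation of the sums rested on Hdc, and without it their ranges overlapped between the groups. Hdc had 27.2 ± 7.14 CPM in Fpr2KO (n = 4) and 68.4 ± 36.1 CPM in WT (n = 3). Of the 8 genes, 2 did not overlap between the groups, against a background of 3.18% for lower genes. Their log2 differences ran from -1.68 to -0.077 over the 8 genes. The 9 monocyte markers, 6 of them with higher fitted levels, summed to 1146 to 1282 CPM in Fpr2KO and 1147 to 1456 CPM in WT. The 12 red pulp macrophage markers were higher in 8 cases, with summed ranges that overlapped between the groups. The 6 marginal zone macrophage markers, 5 of them with lower fitted levels, summed to 371 to 477 CPM in Fpr2KO and 427 to 582 CPM in WT. The 8 NK cell markers, 6 with higher fitted levels, summed to 214 to 230 CPM in Fpr2KO and 188 to 199 CPM in WT. Of these 8, 3 did not overlap between the groups, all higher, against a background of 2.73% for higher genes. The log2 differences of the 8 ran from -0.14 to 0.50. No marker of these 6 lists passed edgeR's test, and none was at 0 reads. The part of these cell types in the Fcgr4 and Fcgr3 values was not tested.

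Fcer1g encodes the common chain without which the activating receptors are not held at the surface or do not signal. It had 196, 161, 190 and 195 CPM in Fpr2KO replicates 1 to 4, against 180, 196 and 188 CPM in WT replicates 1 to 3. Fpr2KO replicate 2 was the one library outside a narrow band, and it was also the lowest for Fcgr3. The means were 185 ± 16.7 CPM in Fpr2KO (n = 4) and 188 ± 7.70 CPM in WT (n = 3). The log2 difference was -0.020 (SE 0.090, edgeR adjusted p = 1.00; exact permutation p = 1), and the interval of the fold was 0.857 to 1.13. Its sign turned without Fpr2KO replicate 2 (0.043), without WT replicate 2 (0.011) and without both Fpr2KO replicates 1 and 2 (0.039).

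Fcgr2b encodes the only inhibitory receptor of the family and is carried by B cells as well as by phagocytes. It had 110, 118, 123 and 107 CPM in Fpr2KO replicates 1 to 4, against 120, 121 and 135 CPM in WT replicates 1 to 3. Fpr2KO replicates 1, 2 and 4 lay below all WT libraries, and replicate 3 lay within the WT range. The means were 114 ± 7.15 CPM in Fpr2KO (n = 4) and 125 ± 8.09 CPM in WT (n = 3). The log2 difference was -0.13 (SE 0.085, edgeR adjusted p = 1.00; exact permutation p = 0.171), and the interval of the fold was 0.801 to 1.04. The 9 B cell markers, whose sums are given above, had a median difference of -0.049 on the log2 scale, with 5 lower and 4 higher.

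Fcgrt encodes the heavy chain of the neonatal Fc receptor, which endothelial cells and macrophages use to keep IgG from breakdown. It had 114, 116, 120 and 119 CPM in Fpr2KO replicates 1 to 4, against 123, 121 and 109 CPM in WT replicates 1 to 3. All Fpr2KO libraries lay within the WT range. The means were 117 ± 3.02 CPM in Fpr2KO (n = 4) and 117 ± 7.62 CPM in WT (n = 3). The log2 difference was -0.0011 (SE 0.078, edgeR adjusted p = 1.00; exact permutation p = 1), and the interval of the fold was 0.886 to 1.13. The 8 endothelial markers summed to 510 to 566 CPM in Fpr2KO and 542 to 669 CPM in WT, with 1 higher and 7 lower. Of these 0 passed edgeR's test and 1, Lyve1, was called lower by DESeq2 (adjusted p = 0.0462), against a background of 0.355%. Lyve1 was barely counted, with 131 reads over all 7 libraries, at 0.530 ± 0.247 CPM in Fpr2KO and 1.98 ± 0.750 CPM in WT. The Fcgrt partner gene B2m had 2821 ± 207 CPM in Fpr2KO (n = 4) and 2617 ± 470 CPM in WT (n = 3), with a log2 difference of 0.11 (SE 0.12, edgeR adjusted p = 1.00).

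**Figure D2:**
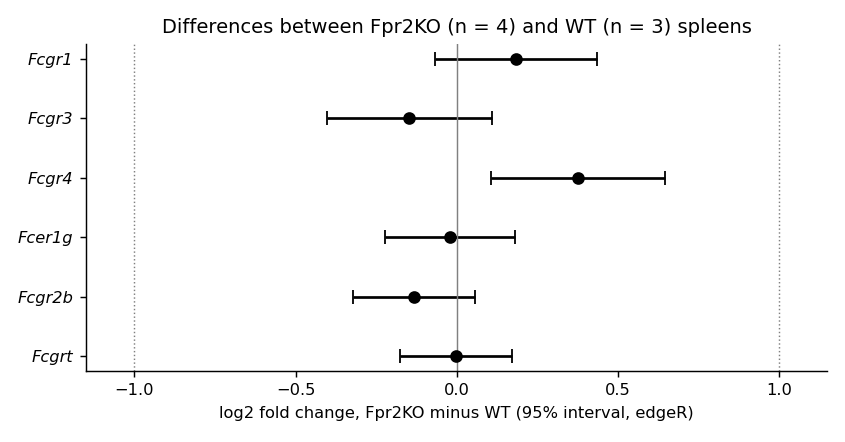
Log2 fold change of each gene, Fpr2KO (n = 4) minus WT (n = 3), with its 95% interval from edgeR's fit, not adjusted for the number of genes. Dotted lines mark a 2-fold difference, which lies outside all 6 intervals. The Fcgr4 interval is the one that leaves out 0.

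The members were deeply counted, from 390 reads for Fcgr1 in WT replicate 2 to 3748 for Fcer1g in Fpr2KO replicate 4. Counting error was thus between 1.63% and 5.06% of a value, while the SD between libraries was between 2.57% of the mean for Fcgrt in Fpr2KO and 15.3% for Fcgr4 in WT. The highest library exceeded the lowest 1.62-fold for Fcgr4, 1.47-fold for Fcgr1, 1.40-fold for Fcgr3, 1.25-fold for Fcgr2b, 1.22-fold for Fcer1g and 1.13-fold for Fcgrt. Fcgr4, Fcgr1 and Fcgr3 thus varied most among libraries and Fcgrt least.

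Set side by side per length, as CPM per kb of annotated exon, Fcer1g was the most abundant transcript, at 212 ± 19.1 in Fpr2KO (n = 4) and 215 ± 8.81 in WT (n = 3). Fcgr3 followed at 88.7 ± 12.1 in Fpr2KO and 98.2 ± 7.76 in WT. Fcgr4 had 59.2 ± 5.80 in Fpr2KO and 45.6 ± 6.97 in WT, and Fcgrt 55.8 ± 1.44 in Fpr2KO and 55.9 ± 3.63 in WT. The libraries of Fcgr4 and Fcgrt overlapped within each group, so their order cannot be given beyond the spread. Fcgr2b, at 19.8 ± 1.23 in Fpr2KO and 21.6 ± 1.40 in WT, and Fcgr1, at 13.1 ± 1.07 in Fpr2KO and 11.5 ± 1.43 in WT, were lowest.

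The place of Fcgr2b in this order depended on the length used, because its annotated exons span 5790 bases and its coding part 1020. Per kb of coding sequence Fcgr2b had 112 CPM in Fpr2KO and 123 in WT, beside 106 in both groups for Fcgrt. Fcgr4 had 99.6 in Fpr2KO and 76.7 in WT on that scale.

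The balance between activating and inhibitory receptors is often written as a ratio, which within a library does not depend on the scaling. The sum of Fcgr1, Fcgr3 and Fcgr4 over Fcgr2b, per kb of exon, was 9.29, 7.36, 7.57 and 8.51 in Fpr2KO replicates 1 to 4, against 7.72, 7.22 and 6.65 in WT replicates 1 to 3. Fpr2KO replicates 2 and 3 lay within the WT range. The means were 8.18 ± 0.891 in Fpr2KO and 7.20 ± 0.535 in WT, or 2.86 ± 0.320 in Fpr2KO and 2.57 ± 0.211 in WT per kb of coding sequence.

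Fcgr4 alone over Fcgr2b was 3.27, 3.13, 2.39 and 3.28 in Fpr2KO replicates 1 to 4, against 2.15, 1.87 and 2.28 in WT replicates 1 to 3. The groups did not overlap in this ratio, which was chosen after the values of both genes were seen and is given as a description with no test. Fcgr4 over Fcgr3 was 0.611, 0.857, 0.531 and 0.725 in Fpr2KO and 0.433, 0.384 and 0.593 in WT, and here Fpr2KO replicate 3 lay below WT replicate 3. Fcgr4 made up 31.5% to 42.5% of the summed activating receptors per kb of exon in Fpr2KO and 25.9% to 34.2% in WT. The ratio of Fcer1g to the summed activating receptors was 1.32 ± 0.0824 in Fpr2KO and 1.39 ± 0.0988 in WT, a difference smaller than either SD.

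**Figure D3:**
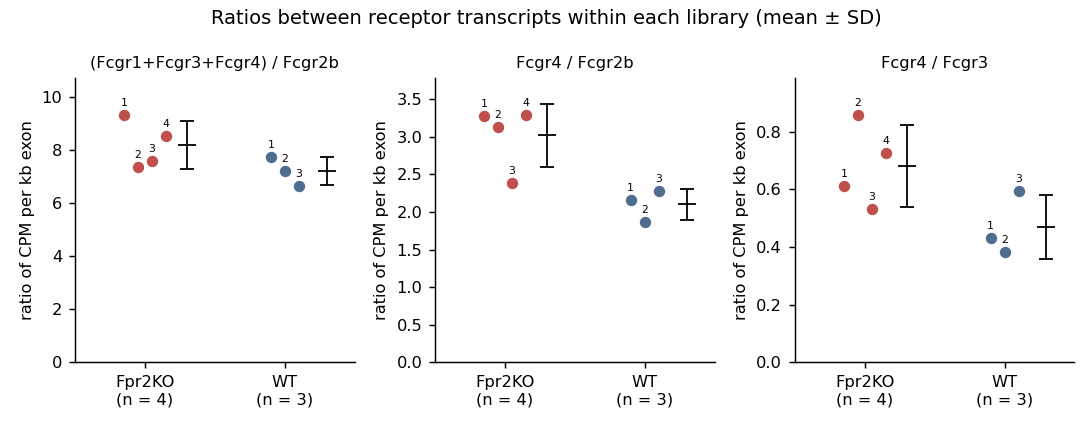
Ratios between receptor transcripts in each library, as CPM per kb of annotated exon, with the replicate number above each point and the mean ± SD beside it (Fpr2KO, n = 4, left; WT, n = 3, right). Fcgr4 over Fcgr2b lies between 2.39 and 3.28 in Fpr2KO and between 1.87 and 2.28 in WT, while the other ratios overlap.

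Downstream of the activating receptors stand kinases, adaptors and GTPases. Of 25 such genes tested, 0 passed edgeR's test. The fitted level was higher for 4 and lower for 21, and the median log2 difference was -0.060. Over all 16089 tested genes, 7819 were higher and 8270 lower. Whether the 25 genes depart from that share was not tested. The smallest p belonged to Rac2, the GTPase of the phagocyte oxidase, at 561 ± 30.8 CPM in Fpr2KO (n = 4) and 638 ± 14.5 CPM in WT (n = 3), with a log2 difference of -0.18 (SE 0.077, edgeR adjusted p = 0.986). Its groups did not overlap, which held for 1 of the 25 genes, against a background of 5.91% in either direction and 3.18% lower. The next were the adaptor genes Gab2 at -0.31 (SE 0.14) and Blnk at -0.19 (SE 0.10), neither of which passed. Syk, the kinase that docks on the common chain, had 421 ± 40.4 CPM in Fpr2KO and 480 ± 57.9 CPM in WT, and was named after its value was seen.

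In the inhibitory branch 0 of 10 genes were called, with 4 higher and 6 lower. The median on the log2 scale was -0.022. The genes with the smallest p were the inositol phosphatase genes Inppl1 (0.25, SE 0.13) and Inpp5d (-0.18, SE 0.11), which encodes SHIP-1, and the tyrosine phosphatase gene Ptpn6 (-0.15, SE 0.088). Other small chains that pair with receptors and signal for them are encoded by Tyrobp, Cd247 and Hcst. Tyrobp had a log2 difference of -0.065 (SE 0.087), Cd247 one of 0.046 (SE 0.17) and Hcst one of 0.0013 (SE 0.11), and 0 of these genes or B2m passed.

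The common chain also serves receptors that do not bind IgG, and 1 of these, Pira2, was called lower in Fpr2KO. Of 7 such partners, 5 had lower and 2 higher fitted levels in Fpr2KO, and the median log2 difference was -1.08. Single genes ran from -1.46 to 0.50. Clec4n, with the highest CPM of the 7, had 155 ± 27.5 CPM in Fpr2KO and 150 ± 10.7 CPM in WT. Its log2 difference was 0.047 (SE 0.13). The 1 call of 7 stands against the background of 0.0373%. The 7 were listed with earlier results of these data known. Pira2 is an activating paired immunoglobulin-like receptor gene with close relatives, among which the counting could split reads. It had 14.8, 15.4, 17.2 and 17.7 CPM in Fpr2KO replicates 1 to 4, against 37.9, 37.0 and 28.4 CPM in WT replicates 1 to 3. The groups did not overlap, and the means were 16.3 ± 1.39 CPM in Fpr2KO (n = 4) and 34.5 ± 5.27 CPM in WT (n = 3). Its log2 difference was -1.08 (SE 0.13, edgeR adjusted p = 0.0201), and the call was lost in 6 of the 7 fits that left out a library, with adjusted p between 0.0611 and 0.140. Over these 7 fits the log2 difference was between -1.20 and -1.01. The call was also lost without both Fpr2KO libraries with pancreatic transcripts (log2 -0.98, edgeR adjusted p = 0.325).

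Clec4e, which encodes the receptor Mincle for mycobacterial glycolipid and for dead cells, had 12.8, 10.4, 14.8 and 10.4 CPM in Fpr2KO replicates 1 to 4, against 44.3, 24.5 and 21.1 CPM in WT replicates 1 to 3. Every Fpr2KO library lay below every WT library, and WT replicate 1 was far above the other WT libraries. Its log2 difference was -1.31 (SE 0.26), called by DESeq2 (adjusted p = 0.000274) but not by edgeR (adjusted p = 0.479). Ncr1, an activating NK cell receptor gene, had 14.8, 18.4, 16.1 and 18.3 CPM in Fpr2KO replicates 1 to 4, against 11.4, 11.4 and 12.97 CPM in WT replicates 1 to 3. Its groups did not overlap either, with a log2 difference of 0.50 (SE 0.13, edgeR adjusted p = 0.546). Clec4e and Pira2 lay on the same side as the neutrophil marker sums given above, and Ncr1, itself one of the 8 NK cell markers, on that of the NK cell sums, and the part of cell numbers in them was not tested.

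Fc receptors for other antibody classes, Fc receptor-like genes and Trim21 gave 0 calls among 11 tested genes of 13 listed. Of these 1 was higher and 10 were lower, with a median of -0.11 on the log2 scale. The higher gene was Trim21, with a log2 difference of 0.12 (SE 0.11). Over all tested genes 7819 were higher and 8270 lower, and a departure from that share was not tested. Fcrl6 and Fcrls had too few reads to be tested. Fcer1a, the IgE-binding chain of mast cells and basophils, had 1.02 ± 0.275 CPM in Fpr2KO (n = 4) and 2.83 ± 1.53 CPM in WT (n = 3), with a log2 difference of -1.46 (SE 0.38, edgeR adjusted p = 0.577). Its partner chain Ms4a2 was at -0.90 (SE 0.40, edgeR adjusted p = 0.988). Ms4a2 is itself one of the 8 mast cell and basophil markers, whose sums are given above, and the part of these cells in both values was not tested. Fcrl5, an inhibitory receptor gene of marginal zone B cells, was at 53.2 ± 7.71 CPM in Fpr2KO and 67.9 ± 4.55 CPM in WT, with a log2 difference of -0.35 (SE 0.12, edgeR adjusted p = 0.850).

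The heavy chain genes that encode the ligand, the IgG constant regions, varied widely between libraries. Summed over 4 genes they had 1409 to 3212 CPM in Fpr2KO and 2267 to 8511 CPM in WT. Ighg2c had 451, 1008, 600 and 954 CPM in Fpr2KO replicates 1 to 4, against 1124, 1683 and 4480 CPM in WT replicates 1 to 3. Every Fpr2KO library lay below every WT library, and WT replicate 3 exceeded the other WT libraries. Its log2 difference, -1.69 with an SE of 0.57, was not called (edgeR adjusted p = 0.945). Ighg2b (-0.69, SE 0.73) and Ighg3 (-1.09, SE 0.73) overlapped between the groups and did not pass. The same held for Ighg1, which was near 0 (-0.039, SE 0.46), at 189 ± 78.5 CPM in Fpr2KO and 195 ± 87.0 CPM in WT. The list's median of -0.89 was -0.25 without WT replicate 3.

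**Figure D4:**
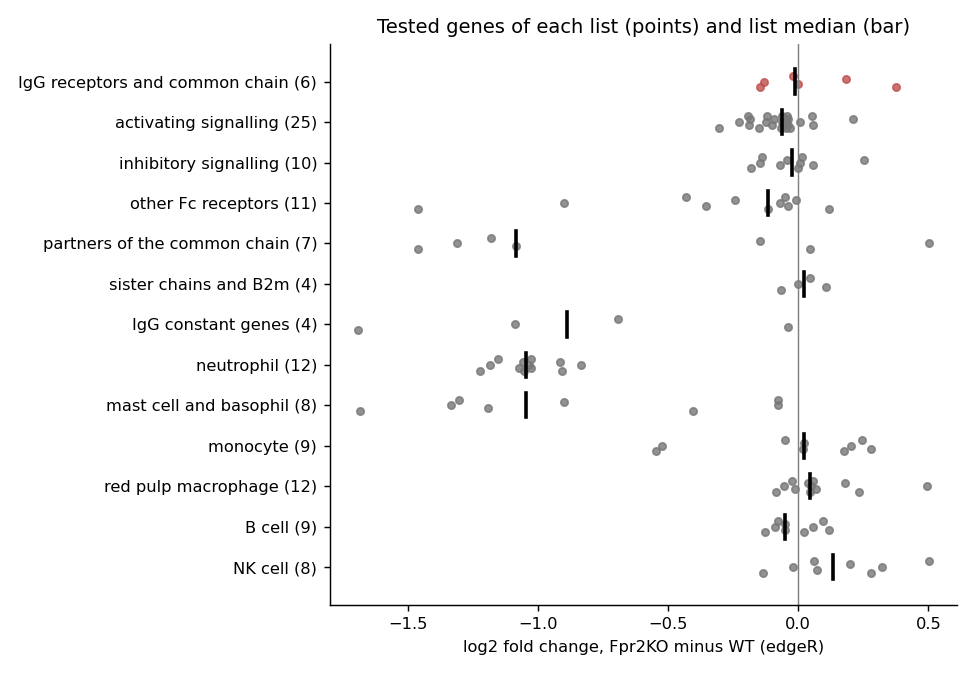
Log2 fold change, Fpr2KO (n = 4) minus WT (n = 3), of the tested genes of each list (points, number in brackets) with the list median (bar). The IgG receptors and their downstream genes lie near 0, with medians of -0.011, -0.060 and -0.022. Partners of the common chain, listed with earlier results of these data known, run from -1.46 to 0.50 with a median of -1.08. Neutrophil markers have a median of -1.04.

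Genes between the receptors on chromosome 1 gave no call. Of 6 other tested genes in the 276 kb between the outer ends of Fcgr2b and Fcer1g, 0 passed and 0 had an unadjusted p under 0.05, with log2 fold changes from -0.37 to 0.53 and a median of 0.015. This window was chosen after the values of the members were seen.

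The genes most like each member were sought among 11059 other protein-coding genes that averaged 5 CPM or more, by Pearson correlation of log2 CPM over the 7 libraries. With 7 libraries and that many candidates the values are a description and carry no test. For Fcgr4 they were Tulp3 (r = 0.98) and Clec9a (r = 0.97), a receptor gene of cross-presenting dendritic cells, which had 34.9 ± 3.34 CPM in Fpr2KO and 28.4 ± 3.45 CPM in WT. For Fcgr3 they were Tubd1 (r = 0.99) and Golga7 (r = 0.98), and for Fcer1g Grhpr (r = 0.99) and Med9 (r = 0.97). For Fcgr1 they were Snx2 (r = 0.97) and Ptges3 (r = 0.96), for Fcgr2b Abhd14b (r = 0.95) and Dnaja2 (r = 0.94), and for Fcgrt Secisbp2 (r = 0.97) and A430033K04Rik (r = 0.95). Clec9a was in the list of dendritic cell markers, whose 8 genes summed to 555 to 676 CPM in Fpr2KO and 497 to 633 CPM in WT.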

How the data were processed

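The authors deposited raw read counts per Ensembl gene, 1 column for each of the 7 spleen libraries. Per the submitters' processing notes, HTSeq 0.10.0 and FastQC 0.10.1 were used with mm10 (GRCm38). Not given in the sources used here are the aligner, annotation release and strand setting. Symbols, positions, lengths and transcript sequences came from GENCODE M21 (GRCm38), in which 52081 of 55414 IDs were found. Sequences are of the transcripts numbered 201.

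The test was run in R 4.3.3 with edgeR 4.0.16 (TMM scaling, filterByExpr, robust quasi-likelihood test) over 16089 tested genes, and CPM were scaled with TMM factors. Standard errors derive from the log2 fold change and its F value. DESeq2 1.42.0 and limma 3.58.1 were alternatives, and the edgeR fit alone was also run on simulated counts. Replicates are numbered in the labels without saying that they are separate animals. The p-values therefore cover the spread among these libraries, which may be technical. Replicates of a group differed beyond sampling noise.

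The members and lists were chosen with earlier results of these data known. Genes named are the members, those called in the 6 pathway lists, the 3 with the smallest p in each, and the 2 most like each member. Syk, Hcst, Lyve1, Hdc, Clec4n, Trim21 and Ighg1 were named after their values were seen.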

Additional observations from a re-analysis of the deposited data

How the results depend on the processing

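No IgG receptor gene or common chain passed in any of 17 alternative fits. Over these fits the log2 fold change of Fcgr4 was between 0.28 and 0.50, of Fcgr1 between 0.084 and 0.27, of Fcgr3 between -0.21 and -0.070 and of Fcgr2b between -0.17 and -0.077. The sign of 2 genes near 0 turned. Fcgrt was at 0.0083 with DESeq2, 0.021 with limma-voom, 0.0081 with RLE scaling, 0.017 with upper-quartile scaling and 0.035 without both Fpr2KO libraries 1 and 2, and between -0.053 and 0.035 with 1 library left out. Fcer1g was at 0.039 without both of these libraries and between -0.048 and 0.043 with 1 left out.

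Over all genes 6 passed, 6 lower and 0 higher. DESeq2 called 56 (48 lower, 8 higher), edgeR without a low count filter 21 (19 lower, 2 higher), and fits without 1 library between 5 and 15, all lower. The replicate block left 2, both lower. Same-numbered libraries did not deviate together (correlations 0.0778, -0.434 and -0.0733 over 16089 genes), not every library correlated best with its own number, and the numbers are not taken as pairs.

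Among partners of the common chain DESeq2 called 2 genes, limma-voom, the replicate block and the fit without both Fpr2KO libraries 0, and fits without 1 library 0 or 1. Their median was -0.82 with limma-voom and between -1.20 and -0.72 without 1 library. That of other Fc receptors was -0.25 without a filter, -0.27 with the replicate block, -0.013 without both Fpr2KO libraries and between -0.30 and -0.044 without 1 library, and that of IgG constant genes between -1.21 and -0.25. Per kb of coding sequence, activating receptors over Fcgr2b were 2.86 in Fpr2KO and 2.57 in WT, and Fcgr4 over Fcgr3 was 0.528 in Fpr2KO and 0.365 in WT. With 4 and 3 libraries, differences smaller than the distance between a gene's estimate and the end of its interval could not be told from spread. These intervals were not adjusted for the number of genes, so passing the test took a larger difference. The Fcgr4 interval left out 0, yet the gene did not pass (edgeR adjusted p = 0.833). Counting errors cover counting only, since reads carried no molecular identifiers that the labels mention.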
